A study of Mus musculus with 12 samples.

Results

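Ly6CloPD-L2lo and Ly6CloPD-L2hi cells, sorted from the same kind of allergic skin lesion and named resident-like macrophages and late classical monocyte-derived macrophages (late CMDMs) by their labels, were compared across all genes by bulk RNA-seq, with 3 libraries each, 6 of the 12 libraries of the series. All 12 libraries came from the skin of wild-type (WT) BALB/c mice. The mice carried anti-TNP IgE (300 μg, intravenous) and were challenged the next day with 10 μg of TNP-conjugated ovalbumin in the ear skin, which elicits IgE-dependent chronic allergic inflammation (IgE-CAI). The cells were taken 5 days after challenge. Every fraction was gated on CD45 and CD11b, without SiglecF and Ly6G, and split by the surface proteins Ly6C and PD-L2, so that the fractions are mixtures of whatever cells carry those proteins. The other 6 libraries, 3 of Ly6ChiPD-L2hi early CMDMs and 3 of Ly6ChiPD-L2lo classical monocytes, entered the model and are given below only as reference levels. No source used here says whether the 3 libraries of a fraction came from separate animals, so p-values measure only the spread between these libraries.

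Skin macrophages have several sources. Embryonic and long-lived dermal macrophages sit along vessels, carry scavenger receptors such as CD163 and LYVE1, and clear debris. Blood monocytes that enter inflamed skin lose Ly6C, and those exposed to IL-4 gain PD-L2 and arginase 1. Langerhans cells of the epidermis and dendritic cells of the dermis instead carry high MHC class II and langerin or CD11c, and present antigen to T cells. MHC class II genes are switched on together by the coactivator CIITA, which is recruited to a conserved set of promoter elements that includes the Y box.

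The promoters of 4 MHC class II genes that were higher in the Ly6CloPD-L2lo fraction are shown as examples, of which *H2-Aa* and *H2-Eb1* encode chains of the presenting molecules and *H2-DMb1* and *H2-DMb2* chains of the peptide loader. Each sequence is RefSeq, build GRCm38.p6, read 5′ to 3′ on the gene's own strand, from 250 bases before the gene start to 50 bases after it. Capitals mark the Y box core ATTGG, or CCAAT where the core lies in the other orientation.
*H2-Aa*, chr17:34287774-34288073, minus strand: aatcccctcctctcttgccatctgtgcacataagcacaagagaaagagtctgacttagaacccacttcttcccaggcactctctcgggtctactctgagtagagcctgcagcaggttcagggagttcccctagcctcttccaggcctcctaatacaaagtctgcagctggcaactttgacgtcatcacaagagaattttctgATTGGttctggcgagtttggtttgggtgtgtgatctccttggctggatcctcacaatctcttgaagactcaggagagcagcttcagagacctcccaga
*H2-Eb1*, chr17:34305617-34305916, plus strand: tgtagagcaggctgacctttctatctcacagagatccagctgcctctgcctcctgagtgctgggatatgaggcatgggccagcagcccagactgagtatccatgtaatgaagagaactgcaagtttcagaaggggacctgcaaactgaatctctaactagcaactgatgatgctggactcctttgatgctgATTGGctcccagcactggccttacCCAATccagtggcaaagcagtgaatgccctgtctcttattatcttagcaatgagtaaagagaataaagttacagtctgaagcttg
*H2-DMb1*, chr17:34152941-34153240, plus strand: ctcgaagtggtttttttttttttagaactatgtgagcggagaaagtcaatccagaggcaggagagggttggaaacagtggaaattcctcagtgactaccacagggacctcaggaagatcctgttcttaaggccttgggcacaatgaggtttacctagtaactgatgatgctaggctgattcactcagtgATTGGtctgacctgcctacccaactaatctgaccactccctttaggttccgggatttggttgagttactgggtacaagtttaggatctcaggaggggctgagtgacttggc
*H2-DMb2*, chr17:34144999-34145298, plus strand: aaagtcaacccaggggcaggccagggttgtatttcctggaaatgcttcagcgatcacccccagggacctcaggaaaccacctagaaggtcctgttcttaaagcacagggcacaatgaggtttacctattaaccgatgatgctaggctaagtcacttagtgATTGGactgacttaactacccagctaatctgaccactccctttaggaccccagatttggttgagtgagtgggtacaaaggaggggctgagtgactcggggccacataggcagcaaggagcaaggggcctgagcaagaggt
The forward core began 48 bases before the gene start in *H2-Aa*, 59 in *H2-Eb1*, 61 in *H2-DMb1* and 90 in *H2-DMb2*. The table held 18 promoters of 14 of the MHC class II genes, since a gene can have more than 1. Of these promoters 13 (72.2%), in 12 of the 14 genes, held the core in either orientation, against 37.4% of all 32851 mouse promoters in the same table. A match of 5 letters is a description of the sequence and does not show binding.

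Between 12537178 and 19844113 reads per library were assigned to 37775 genes, and the Ly6CloPD-L2lo libraries (18113334 to 19844113) were all deeper than those of late CMDMs (12537178 to 16084234), so depth moved with the fraction. A level is given as CPM, the reads of a gene relative to the TMM-scaled size of its library, and a difference as the log2 fold change of Ly6CloPD-L2lo over Ly6CloPD-L2hi with its standard error from edgeR. A value in brackets after a gene without a unit is that log2 fold change. The first principal component of the 6 libraries separated the fractions (45.9% of the variance) and the second separated Ly6CloPD-L2lo replicate 1 from the other libraries (16.4%).

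Of 22118 genes tested, 6225 were called at an adjusted p under 0.05 (28.1% of those tested). Of these, 2808 (12.7%) were higher and 3417 (15.4%) lower in the Ly6CloPD-L2lo fraction. Called genes that changed at least 2-fold numbered 2297 (10.4%), 868 higher (3.92%) and 1429 lower (6.46%). The 3 libraries of one fraction lay wholly above those of the other for 20.8% of all genes tested in the upward direction and 22.3% in the downward direction. The balance of directions depends on the scaling. Higher genes were 45.1% of calls with TMM, 28.0% when library size alone was used and 4.55% when libraries were scaled by 10 pan-leukocyte genes, 6 of which were themselves called higher in Ly6CloPD-L2lo with TMM (*Coro1a*, an actin regulator of leukocytes, 1.92 ± 0.16). That last scaling moves the median log2 fold change of all genes from 0.00 to -0.66, and library size alone moves it to -0.13. List medians between 0 and 0.66 therefore turned negative under the pan-leukocyte scaling. In bulk RNA, fewer cells of a type and less RNA per cell cannot be told apart.

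**Figure D1:**
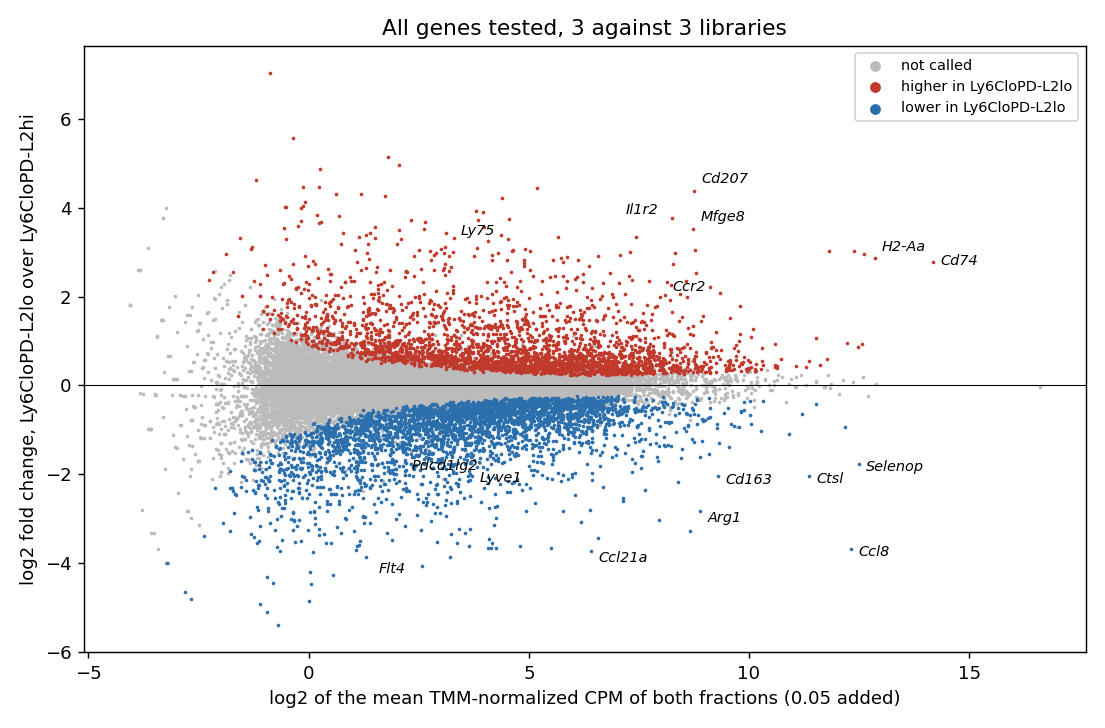
Each point is 1 of the 22118 genes tested, with its mean level in both fractions on the x axis (log2 CPM) and the log2 fold change of Ly6CloPD-L2lo over Ly6CloPD-L2hi on the y axis, coloured by call at an adjusted p under 0.05. MHC class II genes (*H2-Aa*, *Cd74*) and *Cd207* stand at the top among abundant genes, and *Ccl8*, *Arg1*, *Selenop* and *Ctsl* at the bottom.

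The sort gate and the names of the fractions were read first. *Pdcd1lg2*, which encodes PD-L2 (chr19:29410919-29471161), measured 11.6, 8.49 and 8.65 CPM in Ly6CloPD-L2lo and 32.3, 33.4 and 30.7 CPM in late CMDMs, in the direction of the gate. *Ly6c2* was low in both, at 15.9, 18.9 and 17.8 against 21.98, 18.8 and 16.6 CPM, where the classical monocytes held 380.01 to 607 CPM. *Ptprc* (CD45) was higher in Ly6CloPD-L2lo (1.10), and *Itgam* (CD11b) was 0.35 with an adjusted p of 0.163 in all 12 libraries and 0.00494 when only the 6 libraries were fitted. *Siglecf*, the gene of a protein gated out, was at 2.21, 2.24 and 2.59 CPM against 0.239, 0.608 and 0.337 CPM. *Ly6g* had no count in any of the 6 libraries, which allows up to 0.239 CPM in the shallowest of them (3 counts).

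Macrophage identity genes had overlapping summed levels in both fractions, but not without *Lyz2* (lysozyme). The 18 genes summed to 20346 to 21045 CPM in Ly6CloPD-L2lo and 18446 to 20769 CPM in late CMDMs. *Lyz2* alone was 6739, 7965 and 7226 against 4400, 4162 and 3527 CPM. Without it, every Ly6CloPD-L2lo sum lay below every late CMDM sum. Of the 18 genes, 3 were called higher, 5 lower and 10 not called, beside 12.7% higher and 15.4% lower over all genes tested. In the fit of only the 6 libraries 10 were lower, and under pan-leukocyte scaling 15. *Adgre1* (F4/80), whose protein may have been part of the gate, was 199, 179 and 169.8 against 214, 198 and 192 CPM, and the groups overlapped. Among the members that differed, *Maf*, a transcription factor of macrophages, was 134, 140.5 and 137 CPM in Ly6CloPD-L2lo and 370.4, 337 and 359.6 CPM in late CMDMs (-1.37 ± 0.10, adjusted p = 7.13e-08). *Cx3cr1*, the fractalkine receptor, was 48.2, 25.7 and 33.5 against 11.5, 8.45 and 7.21 CPM (1.99 ± 0.26), and *Cd14*, a co-receptor for lipopolysaccharide, rose too (1.16).

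The listed genes of perivascular and dermal resident macrophages mostly went against the name resident-like. Of 26 such genes, 3 were called higher and 16 lower in Ly6CloPD-L2lo, with a median log2 fold change of -1.07 beside 0.00 over all genes. Their sum was 5631 to 6384 CPM in Ly6CloPD-L2lo and 14522 to 16033 CPM in late CMDMs, 2.54 times higher in the latter, while the early CMDMs held 4322 to 7477 CPM. *Ccr2*, the chemokine receptor by which monocytes leave the marrow (chr9:124101950-124113557), was also higher in Ly6CloPD-L2lo, at 427, 432 and 457 against 110.5, 98.1 and 113 CPM, beside 355 to 453 CPM in the classical monocytes. The fraction is therefore called here by its gate. The authors matched its name to single-cell RNA-seq, where their resident-like cluster scored highest for this fraction's genes.

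*Cd163*, a scavenger receptor for haptoglobin-bound haemoglobin, was 235, 242 and 259 CPM in Ly6CloPD-L2lo and 845, 925 and 1275 CPM in late CMDMs, 4.13-fold lower in the first (log2 -2.05 ± 0.19, adjusted p = 1.37e-06). *Selenop*, a secreted selenium carrier, was 2435, 2660.1 and 2751 against 9655, 8157 and 8991 CPM (-1.77 ± 0.18), and *Folr2*, a folate receptor of resident macrophages, 92.4, 136 and 114 against 374, 356 and 384 CPM (-1.70 ± 0.22). *Lyve1*, a hyaluronan receptor shared with lymphatic endothelium, was 11.2, 17.5 and 17.1 against 58.7, 77.7 and 36.5 CPM, with replicate 3 the lowest of the late CMDM libraries. In each of these genes the 3 libraries of the fractions did not overlap. The carbonyl reductase gene *Cbr2* (-1.42) and the chemokine gene *Pf4* (-1.30) fell as well, and the lectin genes *Cd209f* (-2.74) and *Cd209g* (-2.57) fell most of the list.

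*Timd4*, *Ltc4s* and *Cd209d* were the 3 members of that list that rose. *Timd4*, a phosphatidylserine receptor of resident macrophages, was 23.7, 19.4 and 29.4 CPM in Ly6CloPD-L2lo against 10.4, 11.4 and 7.69 CPM (1.30 ± 0.20, adjusted p = 0.000134). *Ltc4s*, leukotriene C4 synthase, was 76.9, 113 and 89.8 against 26.9, 34.3 and 19.3 CPM. *F13a1*, which encodes coagulation factor XIII, was -0.55 with an adjusted p of 0.0760. Without late CMDM replicate 3 its adjusted p was 0.00915.

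Genes of the MHC class II pathway held the 5 largest increases in CPM in Ly6CloPD-L2lo. Of 18 members, 12 were called higher and 1 lower, with a median log2 fold change of 2.56. The 18 genes together made up 66816 to 71413 CPM in Ly6CloPD-L2lo and 12508 to 14408 CPM in late CMDMs. *Cd74*, the invariant chain that guides class II molecules through the cell, was 32647, 31606 and 33149.6 CPM against 5092, 5225 and 3844 CPM (2.78 ± 0.15). *H2-Aa* and *H2-Eb1*, an alpha and a beta chain, whose promoters are printed above, were 12318, 12776 and 14054 against 1964, 1951 and 1488 CPM and 6518, 6308 and 6471 against 855, 889 and 646 CPM. The spread within a fraction was small beside these differences of 7.25- and 8.08-fold.

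The peptide loading genes moved by about as much as the chains they serve. *H2-DMb1* was 712, 814 and 833 CPM in Ly6CloPD-L2lo and 103, 98.4 and 82.6 CPM in late CMDMs (3.06 ± 0.12, adjusted p = 2.85e-10), and *H2-DMb2* and *H2-DMa* rose by 2.98 and 2.54 on the log2 scale. *H2-Oa* and *H2-Ob*, which restrain H2-DM, rose by 2.58 and 2.59 on that scale from levels of at most 2.90 CPM in late CMDMs. *Ciita*, the coactivator itself (chr16:10480059-10528418), was 143, 147 and 139 against 26.7, 22.6 and 17.2 CPM (2.69 ± 0.14). The classical monocytes held 46.8 to 61.6 CPM of *Ciita*, below Ly6CloPD-L2lo and above late CMDMs, and the early CMDMs 16.4 to 18.6 CPM.

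The protease genes of the list did not follow. *Lgmn*, the asparaginyl endopeptidase that starts invariant chain removal, was 892, 683 and 862 CPM in Ly6CloPD-L2lo and 1595, 1406 and 1983 CPM in late CMDMs, the member that fell (-1.03 ± 0.27, adjusted p = 0.0117). Its adjusted p was 0.0525 without Ly6CloPD-L2lo replicate 2 and 0.0520 without late CMDM replicate 3. *Ctss*, cathepsin S, was -0.36 (adjusted p = 0.167). The H2 genes are polymorphic and the reads of BALB/c mice were aligned to a C57BL/6 reference, and *H2-DMb1* and *H2-DMb2* are near-identical copies, so the split between such pairs is uncertain.

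Langerhans and dendritic cell genes rose with MHC class II. Of 36, 20 were called higher and 2 lower (median 0.90), or 15 and 10 under pan-leukocyte scaling, and their sum was 6080.2 to 6196 CPM against 2093 to 2371 CPM. In the ranking of genes of at least 10 CPM (rule given below) the largest change was that of *Cd207* (chr6:83671215-83677857), which encodes langerin, a lectin of Langerhans cells and of some dermal dendritic cells. It was 679, 859 and 919.6 CPM in Ly6CloPD-L2lo and 37.4, 42.9 and 37.2 CPM in late CMDMs (4.39 ± 0.18, adjusted p = 3.95e-10), and the early CMDMs (58.4 to 75.9 CPM) and monocytes (31.1 to 48.8 CPM) were near the late CMDMs.

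*Itgax* (CD11c) was 106, 69.8 and 71.1 CPM in Ly6CloPD-L2lo against 12.7, 11.3 and 11.3 CPM (2.81 ± 0.16). *Ly75* (DEC-205), an endocytic receptor, was 45.2, 47.3 and 33.1 against 2.55, 5.17 and 4.79 CPM, and *Mgl2*, a galactose lectin of dermal dendritic cells and IL-4-treated macrophages, 860.3, 906 and 989 against 217, 232 and 144 CPM. All 3 genes separated the fractions without overlap. *Cd209a*, a lectin of monocyte-derived dendritic cells, rose by 2.05 on the log2 scale, *Epcam*, an adhesion molecule of Langerhans cells and epithelium, by 1.43, and *Flt3*, the growth factor receptor of dendritic cells, by 1.38 from 11.5, 10.8 and 8.77 CPM. *Zbtb46*, a transcription factor of conventional dendritic cells, was 13.3, 10.2 and 12.4 against 6.61, 5.47 and 5.596 CPM (1.03 ± 0.18).

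*Clec9a* and *Xcr1*, known from cross-presenting dendritic cells, overlapped between the fractions. *Clec9a* was near the floor, at 0.485, 0.243 and 0.589 CPM in Ly6CloPD-L2lo and 0.398, 0.243 and 0.2697 CPM in late CMDMs, while the classical monocytes held 7.19 to 10.1 CPM. *Xcr1* was 3.67, 4.61 and 4.41 against 4.54, 3.53 and 2.97 CPM (0.21, adjusted p = 0.454). *Fscn1*, an actin bundler of mature dendritic cells, fell (-1.17), and its adjusted p was 0.0642 when only the 6 libraries were fitted. The summed Langerhans and dendritic cell genes were higher in the same libraries as MHC class II, and the part that any dendritic or Langerhans cells inside the gate had in the class II result was not tested.

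**Figure D2:**
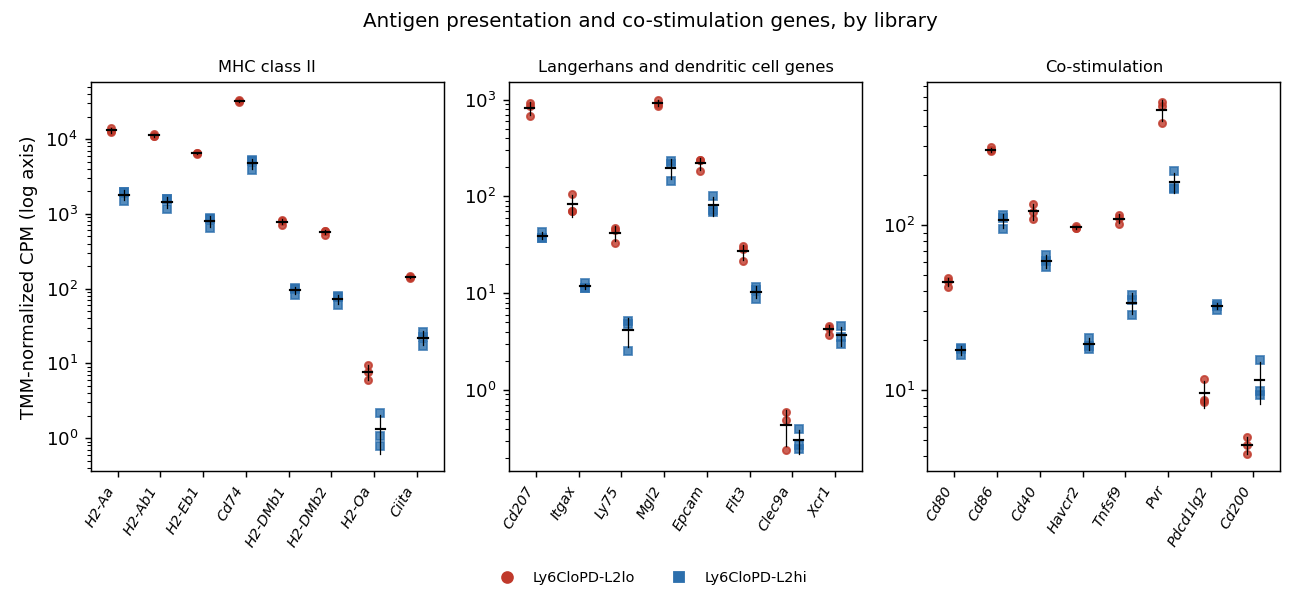
CPM of each of the 3 libraries of Ly6CloPD-L2lo (circles) and Ly6CloPD-L2hi (squares) on log axes, with the mean (horizontal bar) and SD (vertical line), for 8 genes each of MHC class II, of Langerhans and dendritic cells and of co-stimulation. The fractions do not overlap except in *Clec9a* and *Xcr1*, and *Pdcd1lg2* and *Cd200* are the 2 of the 24 genes that are higher in Ly6CloPD-L2hi.

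Co-stimulatory genes moved in both directions. Of 18, 10 rose and 5 fell, with a median of 1.02, and under pan-leukocyte scaling 8 were higher and 8 lower. Without Ly6CloPD-L2lo replicate 1 or 3 or late CMDM replicate 3, only 3 fell. *Cd80* and *Cd86*, the ligands of CD28, were 47.5, 45.6 and 42.3 against 17.8, 18.1 and 16.2 CPM and 280.4, 296 and 284 against 115, 111 and 94.5 CPM, with log2 fold changes of 1.37 ± 0.13 and 1.43 ± 0.13. *Cd40*, which receives help from T cells, rose by 1.00 on the log2 scale. The largest change was that of *Havcr2* (TIM-3), a checkpoint receptor, at 99.4, 95.5 and 95.5 against 18.5, 17.8 and 20.8 CPM (2.35 ± 0.12). *Tnfsf9* (4-1BB ligand, 1.69) and *Pvr*, a ligand of the receptor encoded by *Cd226*, (1.46) rose as well. *Cd226* itself was 26.8, 35.3 and 24.8 CPM in Ly6CloPD-L2lo and 3.03, 2.92 and 1.42 CPM in late CMDMs. On the other side were *Cd200*, ligand of an inhibitory myeloid receptor (-1.31), and *Pdcd1lg2*, the gene of the gate. *Cd274*, which encodes the other PD-1 ligand, was -0.28 (adjusted p = 0.233).

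C-type lectin receptors rose in 14 of 29 members and fell in 3 (median 0.73), with 5 falling when Ly6CloPD-L2lo replicate 2 was left out and 9 higher and 9 lower under pan-leukocyte scaling. *Clec12a*, an inhibitory receptor for uric acid crystals, was 120.5, 111 and 117 CPM in Ly6CloPD-L2lo and 24.1, 20.8 and 18.9 CPM in late CMDMs (2.45 ± 0.12), and *Clec4b1* was 88.1, 117 and 105 against 13.7, 17.9 and 9.98 CPM. *Clec7a* (dectin-1), the receptor for fungal glucan, rose by 1.11 on the log2 scale. The mannose receptor gene *Mrc1* went the other way, at 802, 757 and 699.7 against 1337, 1310.2 and 1459 CPM (-0.86 ± 0.19, adjusted p = 0.00276). Among Fc receptors, 4 of 11 rose and 1 fell (12.7% and 15.4% of all genes tested), although the median was -0.22. *Fcer1a* and *Ms4a2*, chains of the high-affinity IgE receptor of mast cells and basophils, were among those that rose. With at least 10 counts in every library 9 Fc receptors were tested, and 2 rose and 1 fell. *Fcgrt*, the neonatal Fc receptor that recycles IgG, fell (-1.21), and *Fcer2a*, the low-affinity IgE receptor CD23, rose from 2.31, 1.52 and 1.82 to 8.41, 5.16 and 6.36 CPM.

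Genes for taking up apoptotic cells were split by member. Of 23 receptors and bridging molecules tested, 6 were higher and 7 lower (median -0.08), beside 12.7% and 15.4% of all genes tested. Both bridging molecules that link phosphatidylserine to TAM receptors were lower. *Gas6* was 151, 168 and 139.6 CPM in Ly6CloPD-L2lo and 412, 396 and 373 CPM in late CMDMs (-1.37 ± 0.10, adjusted p = 9.80e-08), and *Pros1* fell by 0.49 on the log2 scale, with an adjusted p of 0.0606, 0.0681 or 0.0822 without Ly6CloPD-L2lo replicate 3 or late CMDM replicate 1 or 2.

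*Mfge8* (chr7:79133768-79149060), which encodes the bridge from phosphatidylserine to integrins, was the member that rose most. It was 692, 806 and 844 CPM in Ly6CloPD-L2lo and 63.8, 72.6 and 66.5 CPM in late CMDMs, 11.5-fold higher (3.53 ± 0.14, adjusted p = 2.85e-10). The early CMDMs (78.8 to 90.8 CPM) and monocytes (47.9 to 67.2 CPM) held levels near those of late CMDMs. *Itgb3*, the beta chain of one integrin that binds MFG-E8, was lower (-1.45).

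The TAM receptors themselves differed in direction. *Mertk* was 14.4, 9.34 and 13.1 CPM in Ly6CloPD-L2lo and 28.6, 25.2 and 27.8 CPM in late CMDMs (-1.14 ± 0.29, adjusted p = 0.0103), with an adjusted p of 0.0667 when no filter on low counts was used. *Axl* was 37.3, 23.7 and 20.1 against 10.99, 13.7 and 9.64 CPM (1.24 ± 0.24). *Tyro3* was at 1.94, 2.49 and 1.77 against 3.50, 7.11 and 4.11 CPM, with an adjusted p of 0.0561 without late CMDM replicate 2. So 1 of the 3 receptor genes was higher and the other two lower. *Stab1*, a scavenger receptor that also binds phosphatidylserine, fell by 1.33 on the log2 scale, and the lipid receptor gene *Trem2* was -0.50 (adjusted p = 0.134, and 0.00495 in the fit of only the 6 libraries). The 3 libraries of the fractions did not overlap for *Trem2* either.

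Downstream of the receptors, 7 of 22 engulfment and Rac1 genes rose and 1 fell (median 0.31, and -0.35 under pan-leukocyte scaling), with 4 rising when Ly6CloPD-L2lo replicate 2 was left out and 13 in the fit of only the 6 libraries. *Elmo1*, a scaffold that activates Rac1 with DOCK proteins, was 65.5, 59.0 and 57.03 CPM in Ly6CloPD-L2lo and 30.3, 28.6 and 24.2 CPM in late CMDMs (1.13 ± 0.11). *Dock2* (0.70) and *Rac1* (0.51) rose, the latter falling below 0 under pan-leukocyte scaling. Of 28 genes of PI3K and Akt signalling, 9 rose and 4 fell (median 0.21, and -0.46 under that scaling), with 1 or 2 falling when Ly6CloPD-L2lo replicate 2 or 3 or late CMDM replicate 2 or 3 was left out. *Pik3r6*, a regulatory subunit of PI3K gamma, was 40.8, 48.2 and 48.1 against 17.0, 14.8 and 18.0 CPM. *Phlpp1*, a phosphatase that acts on Akt, rose most (1.66), and *Inppl1*, which encodes the phosphatase SHIP2, fell most (-0.97).

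Genes induced by IL-4 in macrophages did not move as a block, with 9 of 33 higher and 10 lower (median -0.02). Over all genes tested 12.7% were higher and 15.4% lower. *Arg1* (chr10:24915221-24927484), arginase 1, was 113, 85.5 and 154 CPM in Ly6CloPD-L2lo and 777, 746 and 977 CPM in late CMDMs, 7.11-fold lower (-2.83 ± 0.47, adjusted p = 0.00128). *Slc7a2*, an arginine transporter, was 25.4, 17.0 and 20.8 against 122, 146 and 173 CPM (-2.80 ± 0.19), and *Chil3* (Ym1), a chitinase-like protein, was 57.4, 25.2 and 65.1 against 171, 141 and 128 CPM. *Rnase2a* and *Ear2*, both of the eosinophil-associated ribonuclease family, went opposite ways. The first was 63.8, 87.8 and 76.3 against 671, 635 and 909 CPM and the second 157, 194 and 148 against 24.8, 26.4 and 15.5 CPM. Reads of such close relatives may be shared between them.

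*Retnla* (RELM alpha) varied between the libraries of a fraction. It was 533, 2272 and 770.2 CPM in Ly6CloPD-L2lo and 1112, 1543 and 738 CPM in late CMDMs, and its log2 fold change was 0.08 ± 0.45. Without Ly6CloPD-L2lo replicate 2 it was -0.80 (adjusted p = 0.0315). *Irf4*, a transcription factor of IL-4-treated macrophages and dendritic cells, rose (1.25), as did *Alox15*, a lipoxygenase (1.73). The STAT6 site TTCNNNNGAA, searched on both strands, was in 4 of the 32 promoters of this list in the RefSeq table and in 6.95% of all promoters, a description only.

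**Figure D3:**
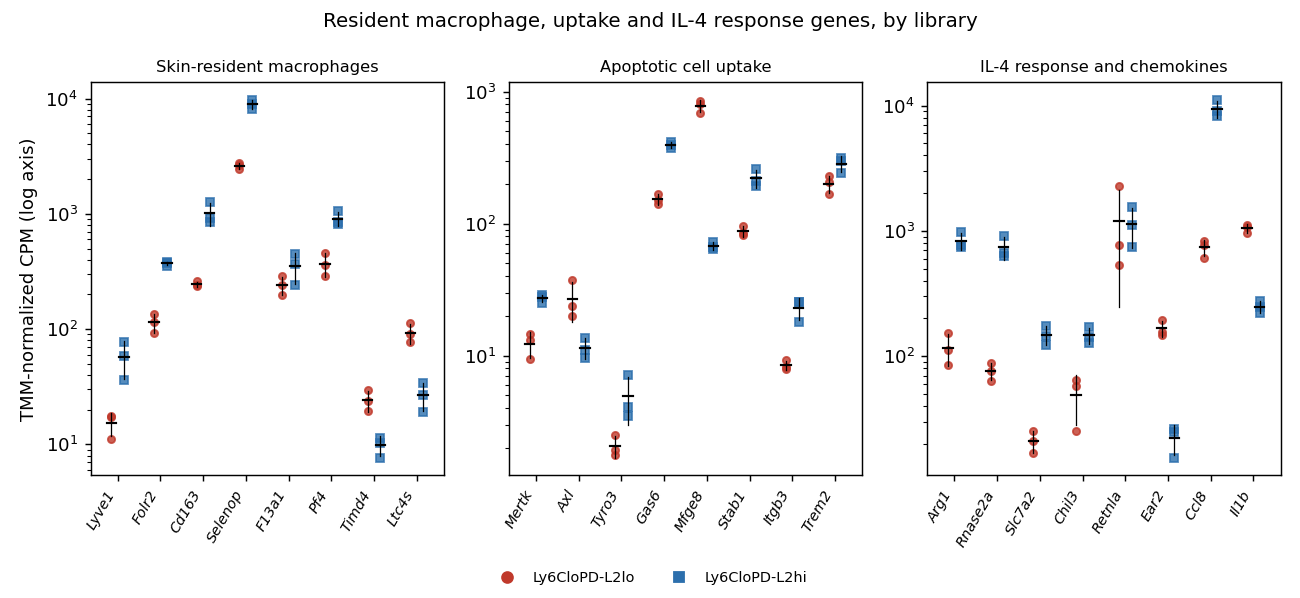
CPM of each of the 3 libraries of Ly6CloPD-L2lo (circles) and Ly6CloPD-L2hi (squares) on log axes, with mean (horizontal bar) and SD (vertical line), for 8 genes each of skin-resident macrophages, of apoptotic cell uptake and of the IL-4 response and chemokines. *Mfge8*, *Axl*, *Timd4*, *Ltc4s*, *Ear2* and *Il1b* lie higher in Ly6CloPD-L2lo, *F13a1* and *Retnla* overlap, and the other 16 genes lie higher in Ly6CloPD-L2hi.

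Chemokine genes fell in 8 of 32 members and rose in 7 (median -0.31), beside 15.4% and 12.7% of all genes tested. *Ccl8* (chr11:82115185-82116799), a ligand of CCR8, was 612, 833 and 770.2 CPM in Ly6CloPD-L2lo and 9067, 8202 and 11040 CPM in late CMDMs, 12.8-fold lower (-3.68 ± 0.22, adjusted p = 1.67e-08). No other gene lost as many CPM. The classical monocytes held 615 to 657 CPM and the early CMDMs 2094 to 4169 CPM. Ligands of CCR2 were lower too, *Ccl7* with -0.87, *Ccl12* at 19.4, 33.7 and 14.4 against 107, 99.5 and 82.9 CPM and *Ccl2* with -0.51. The adjusted p of *Ccl2* was 0.113 without Ly6CloPD-L2lo replicate 1, 0.0797 without Ly6CloPD-L2lo replicate 3, and 0.0725 and 0.1017 without late CMDM replicate 1 and 2. The gene of the receptor of these ligands, *Ccr2*, was higher, as given above.

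On the higher side, *Cxcl16*, the ligand of CXCR6, was 562, 501 and 599 CPM in Ly6CloPD-L2lo and 228, 199 and 255 CPM in late CMDMs (1.28 ± 0.22), and *Cxcl2*, which attracts neutrophils, was 1794, 2266 and 1993 against 1199, 1058 and 917 CPM. *Cxcl9* overlapped between the fractions, and its call was lost without Ly6CloPD-L2lo replicate 2 or late CMDM replicate 2 or 3 (adjusted p = 0.0624, 0.0588 and 0.0643). Among 22 chemokine receptors tested, 5 rose and 3 fell, beside 12.7% and 15.4% of all genes tested. With at least 10 counts in every library 17 were tested, and 2 rose and 3 fell. *Ccr6*, the receptor for CCL20, was 4.42, 3.28 and 5.18 against 0.637, 1.46 and 0.405 CPM, and the scavenging receptor gene *Ackr3* (-1.93) and *Cxcr3* (-1.59) fell.

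Of 41 cytokine and growth factor genes, 10 rose and 12 fell (median 0.05), beside 12.7% and 15.4% of all genes tested. *Il1b* led those that rose. *Il1b* was 1064, 963 and 1122 CPM in Ly6CloPD-L2lo and 274, 220.2 and 246 CPM in late CMDMs (2.09 ± 0.15, adjusted p = 5.05e-08), and the classical monocytes held 1022 to 1269 CPM. The antagonist gene *Il1rn* rose by 1.14 on the log2 scale and the decoy receptor gene *Il1r2* was 447, 616 and 648 against 42.5, 41.5 and 41.0 CPM (3.77 ± 0.15). *Il18* rose by 1.19 on the log2 scale, while *Il18bp*, which encodes its binding protein, fell by 1.58 on the log2 scale. Growth factor genes were among those that fell. *Pdgfc* was 11.6, 8.25 and 12.48 CPM in Ly6CloPD-L2lo and 48.5, 41.2 and 60.9 CPM in late CMDMs, and *Tgfb3* was 1.19, 2.12 and 2.30 against 10.99, 10.8 and 10.5 CPM.

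Among 20 genes that make or sense leukotrienes and prostaglandins, 10 rose, 1 fell and 9 were not called (median 0.28). Under pan-leukocyte scaling 5 were higher and 8 lower (median -0.38). *Alox5*, 5-lipoxygenase, was 121, 132 and 132 CPM in Ly6CloPD-L2lo and 35.6, 34.5 and 26.8 CPM in late CMDMs (1.99 ± 0.11, adjusted p = 2.75e-09). Its activating protein gene *Alox5ap* rose by 0.84 on the log2 scale, and *Ltc4s*, the next enzyme toward cysteinyl leukotrienes, is given above. *Ptgs1* (COX-1) was 119, 127 and 136 against 24.5, 21.03 and 21.4 CPM, and the early CMDMs held 90.2 to 126 CPM. *Ptgis*, prostacyclin synthase, fell from a level of at most 2.43 CPM, with adjusted p-values of 0.0511, 0.0616 and 0.1104 without Ly6CloPD-L2lo replicate 1 or 2 or late CMDM replicate 3.

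Lysosomal genes were lower in Ly6CloPD-L2lo in 25 of 65 members and higher in 6 (median -0.26). *Ctsl*, cathepsin L, was 1144, 869.5 and 1081 CPM in Ly6CloPD-L2lo and 4137, 3592 and 4976 CPM in late CMDMs (-2.04 ± 0.21), and *Ctsb* was 3413, 3112 and 3102 against 6224, 5382 and 6688 CPM. *Atp6v0d2*, a subunit of the vacuolar proton pump, was 26.4, 16.7 and 18.8 against 78.1, 57.9 and 107 CPM. *Ctsk* fell (-0.997), with an adjusted p of 0.0662 without late CMDM replicate 3. The members that rose included an activator of glycolipid breakdown and a sulfatase, *Gm2a* (704, 673 and 731 against 273, 243 and 256 CPM) and *Arsb* (1.53). The E box CACGTG, which reads the same on both strands, was in 17 of the 63 promoters of the list and in 7.15% of all promoters.

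Iron and heme genes fell in 12 of 21 members tested and rose in 1 (median -0.61). *Hmox1*, heme oxygenase 1, was 517, 598 and 564 CPM in Ly6CloPD-L2lo and 1083, 1022 and 1046 CPM in late CMDMs (-0.91 ± 0.14, adjusted p = 0.000120). *Slc40a1* (ferroportin), the iron exporter, was 6.58, 2.002 and 3.47 against 13.5, 8.51 and 6.67 CPM, with adjusted p-values of 0.0589 and 0.0793 without Ly6CloPD-L2lo replicate 3 or late CMDM replicate 1. *Lcn2*, which encodes a siderophore-binding protein, was 1.24, 1.40 and 2.41 against 17.3, 16.0 and 18.0 CPM. *Cd163*, at the start of heme uptake, is given above. The member that rose was *Trf*, transferrin (0.52), with adjusted p-values of 0.0812, 0.0545 and 0.116 without Ly6CloPD-L2lo replicate 1 or late CMDM replicate 2 or 3.

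Cholesterol synthesis and uptake genes fell in 15 of 24 members and rose in 4 (median -0.60). *Hsd17b7*, an enzyme of the later steps, was 11.9, 12.4 and 26.2 CPM in Ly6CloPD-L2lo and 45.5, 55.7 and 66.4 CPM in late CMDMs (-1.73 ± 0.34, adjusted p = 0.00240). *Mvd* (-1.25), an enzyme of the mevalonate steps, fell as well. *Srebf2*, the transcription factor of the pathway, rose (110.5, 99.4 and 108 against 66.0, 65.4 and 61.8 CPM). Among 29 lipid-associated macrophage genes, 3 rose and 8 fell, beside 12.7% and 15.4% of all genes tested. *Lpl*, lipoprotein lipase, was 299, 244 and 218 against 127, 97.4 and 96.5 CPM, and *Fabp5*, a fatty acid carrier, was 159, 140.2 and 219.5 against 520.2, 429.8 and 648 CPM.

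Respiratory chain and ATP synthase genes fell in 50 of 80 members and rose in 1 (median -0.63), and cytosolic ribosomal protein genes fell in 28 of 77 and rose in 12 (median -0.26). Transcript length moved with both. Of 36 respiratory genes with a transcript of at most 750 bases, 31 fell (median -0.90), against 18 of 42 longer ones (median -0.26). Of 29 ribosomal genes as short, 16 fell and 0 rose (median -0.51), and of 48 longer ones 12 fell and 12 rose (median -0.05). Over all genes of at least 10 CPM, 30.3% of 383 genes with transcripts up to 500 bases fell (median -0.24), against 20.4% of 2832 genes between 3000 and 5000 bases (median -0.01).

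*Ndufa1*, a small subunit of complex I, was 14.9, 29.1 and 21.2 CPM in Ly6CloPD-L2lo and 84.3, 78.8 and 101.5 CPM in late CMDMs (-2.02 ± 0.20). *Rps29*, a short ribosomal gene, was 51.1, 93.1 and 62.4 against 195, 181 and 161 CPM, and *Rplp0*, a longer one, 1081, 1050.2 and 1165 against 758, 790.02 and 747 CPM. Replicate 1 was the lowest Ly6CloPD-L2lo library for *Ndufa1*, *Rps29* and the short mitochondrial message *mt-Nd3* (13.3, 30.7 and 23.0 against 77.5, 72.9 and 63.9 CPM). Without it 46 respiratory and 17 ribosomal genes fell. Ribosomal genes fell and rose in 18 and 5 cases without Ly6CloPD-L2lo replicate 3, in 20 and 7 without late CMDM replicate 1, in 18 and 10 without late CMDM replicate 2, and in 24 and 5 without late CMDM replicate 3. With a smooth curve of each library on transcript length removed, 56 respiratory genes fell and 1 rose, and 29 ribosomal genes fell and 12 rose. Of 13 messages encoded in mitochondria, 2 fell and the others were not called.

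Proliferation genes were higher in 16 of 40 members and lower in 1 (median 0.41, and -0.25 under pan-leukocyte scaling), with 10 higher without late CMDM replicate 1. *Ccnd1*, cyclin D1, was 79.5, 106 and 87.3 CPM in Ly6CloPD-L2lo and 43.4, 43.8 and 33.9 CPM in late CMDMs (1.17 ± 0.19). The mitotic checkpoint kinases *Bub1* (1.14) and *Bub1b* (1.18) rose from 1.69 to 3.34 CPM in the late CMDM libraries. *Top2a* was 27.9, 25.8 and 28.4 against 19.4, 20.7 and 19.5 CPM, and *Mki67*, the usual marker of cycling cells, 206, 167 and 178 against 128, 128 and 153 CPM (adjusted p = 0.0323). The call of *Mki67* was lost without Ly6CloPD-L2lo replicate 1 or 3 or late CMDM replicate 1 or 2 (adjusted p = 0.132, 0.0608, 0.115 and 0.115), and both genes turned negative under pan-leukocyte scaling (-0.23 and -0.20).

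Among 38 transcription factors of macrophages and dendritic cells, 17 rose and 9 fell (median 0.16, and -0.50 under pan-leukocyte scaling). *Batf3*, a factor of conventional dendritic cells, was 28.0, 38.0 and 27.01 CPM in Ly6CloPD-L2lo and 13.9, 14.2 and 13.6 CPM in late CMDMs, and its relative *Batf* was 84.0, 92.9 and 96.0 against 42.9, 40.2 and 38.2 CPM. *Rel*, an NF-κB subunit, was 621, 532 and 510.3 against 249.9, 259 and 241 CPM (1.15 ± 0.10). *Maf*, given above, was among those that fell.

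**Figure D4:**
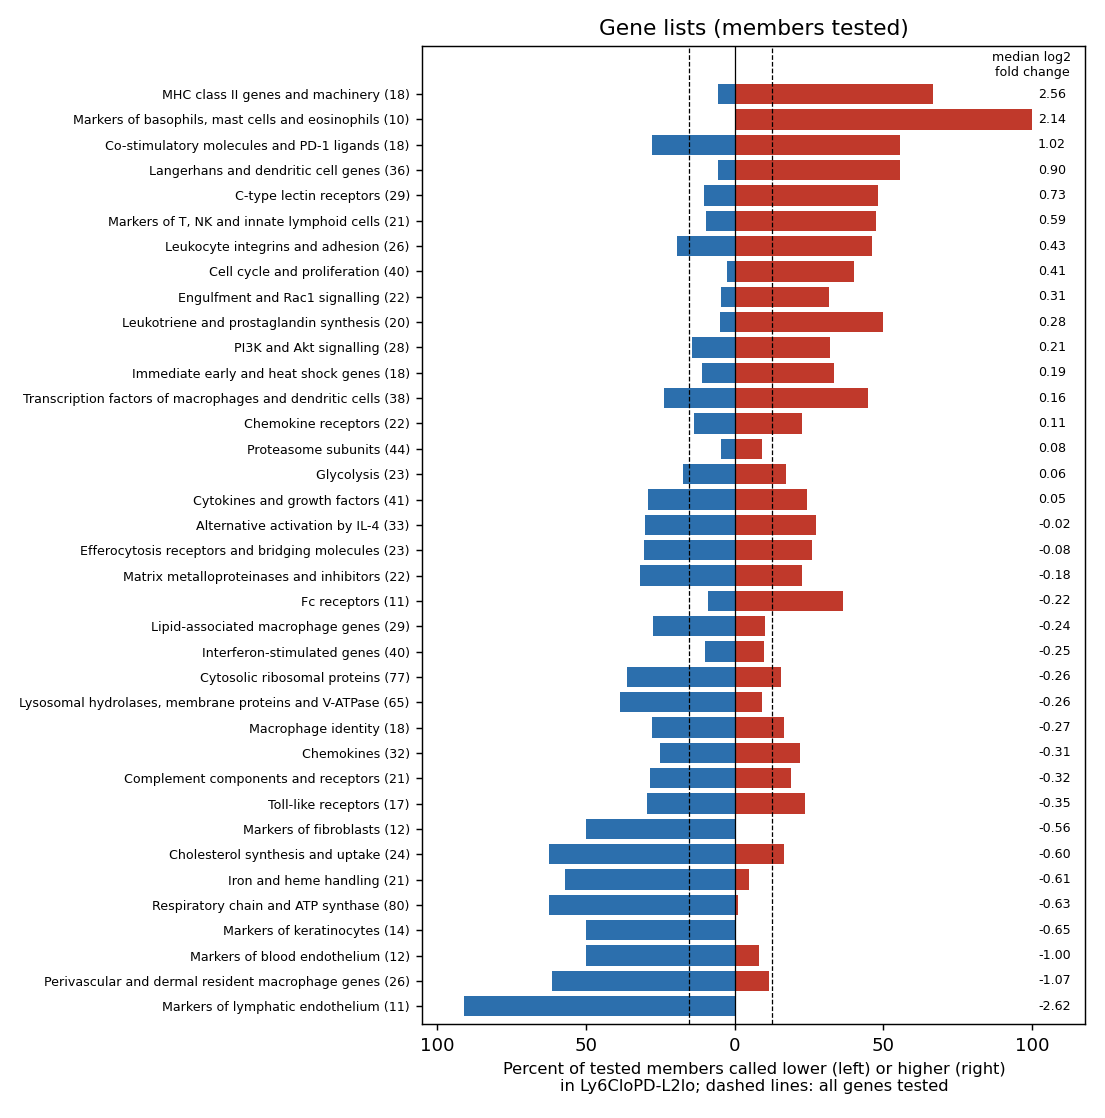
For each gene list (members tested in brackets) the bars give the percent of tested members called higher (right) or lower (left) in Ly6CloPD-L2lo, the numbers the median log2 fold change, and the dashed lines the same percents over all genes tested (12.7 and 15.4). Among genes of at least 10 CPM these percents were larger, 13.8 to 25.4 higher and 15.9 to 30.3 lower by transcript length class. MHC class II has a median of 2.56 at the top, and lymphatic endothelial markers one of -2.62 at the bottom (-1.91 for those with at least 10 counts in every library).

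Beyond the lists, the 15 largest increases in the ranking of genes of at least 10 CPM (rule given below) ran from *Cd207* to *Gpr141*, an orphan receptor of leukocytes (3.34 ± 0.15). They included receptors for ATP, *P2rx2* (33.4, 42.1 and 43.1 against 1.67, 2.43 and 2.16 CPM) and *P2rx5* (3.67), and *Lpar3*, a receptor for lysophosphatidic acid (37.1, 47.4 and 45.6 against 3.19, 2.67 and 3.84 CPM). Also there were *Hapln3*, which encodes a hyaluronan link protein (3.92), the nonclassical MHC gene *H2-M5* (3.89), *Grasp*, a scaffold protein gene (257, 345 and 336 against 31.0, 31.4 and 29.9 CPM), *Cyp4f37*, *Galnt9* and *Wnk2* (3.71, 3.53 and 3.43). *Cd226*, *Il1r2* and *Mfge8*, given above, and the mast cell tryptase gene *Tpsab1* (51.0, 32.8 and 29.5 against 3.98, 4.98 and 1.82 CPM) made up the rest. In CPM, the largest increases were those of *Cd74* and 4 class II chain genes, followed by *Tmsb4x* (an actin-binding peptide), *Lyz2* (lysozyme), *Vim* (vimentin), *Cst3* (cystatin C) and *Actb*, by 0.94, 0.86, 0.95, 1.08 and 0.61 on the log2 scale. *Actb* was -0.05 under pan-leukocyte scaling.

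The 15 largest decreases of the same ranking included genes of lymphatic endothelium and of striated muscle. *Flt4*, the VEGF-C receptor of lymphatic endothelium, was 0.377, 0.728 and 0.883 CPM in Ly6CloPD-L2lo and 12.3, 13.5 and 7.48 CPM in late CMDMs (-4.06 ± 0.31, adjusted p = 9.64e-08). The lymphatic chemokine gene *Ccl21a* was 9.33, 12.1 and 14.3 against 182, 186 and 105 CPM, and its near-identical copies *Ccl21b*, *Ccl21c* and *Ccl21d* may share its reads and fell by like amounts (-3.67, -3.53 and -3.65). *Mmrn1*, a lymphatic matrix protein gene, was 1.94, 3.09 and 3.35 against 42.5, 39.3 and 23.4 CPM, with late CMDM replicate 3 the lowest of its group as for *Flt4* and *Ccl21a*. The titin and nebulin genes of striated muscle, *Ttn* (29.5, 39.1 and 84.5 CPM in late CMDMs) and *Neb* (12.7, 8.69 and 19.9 CPM), and *Enpp2*, autotaxin (101.6, 96.7 and 321 CPM), were instead highest in late CMDM replicate 3. *Ccl8*, *Lcn2*, *Coch* (-3.60), *Defb6*, a beta-defensin gene (-3.46), and *C6*, a complement component (-3.32), were also among the 15. In CPM, the largest decreases were *Ccl8*, *Selenop*, *Ctsl*, *Ctsb*, a gene named only by an accession, *Itm2b* (-0.63), *Lgmn*, *B2m* (-0.41), *Cd163* and *Arg1*. The call of *B2m* was lost without Ly6CloPD-L2lo replicate 1 or 3 or late CMDM replicate 1 or 3, with adjusted p-values of 0.0563 to 0.104.

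Marker lists of other skin cells moved with these results. Of 11 lymphatic endothelial markers, 10 were lower and 0 higher in Ly6CloPD-L2lo (median -2.62), and their sum was 219 to 233 CPM against 549 to 711 CPM in late CMDMs. Some were near the floor in Ly6CloPD-L2lo, so the count is a description. With at least 10 counts in every library 7 were tested, and 6 of these were lower (median -1.91). *Prox1*, the defining transcription factor of that endothelium, was 1.56, 2.18 and 2.24 CPM in Ly6CloPD-L2lo and 16.7, 16.7 and 12.2 CPM in late CMDMs. *Lyve1* is on both this list and that of resident macrophages.

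Blood endothelial markers were called lower in 6 of 12 and higher in 1, *Vwf* (sums 66.3 to 148 against 176 to 211 CPM), with 2 higher when Ly6CloPD-L2lo replicate 1 or 2 was left out. Keratinocyte markers were lower in 7 of 14 (sums 2977 to 3364 against 4297 to 5356 CPM), and among them the hair follicle keratins *Krt17* and *Krt79* fell most, from 193, 346 and 186 to 47.8, 40.7 and 36.5 CPM and from 182, 321 and 221 to 45.7, 30.5 and 42.7 CPM. Fibroblast markers were lower in 6 of 12 (sums 303 to 398 against 527 to 549 CPM). Without Ly6CloPD-L2lo replicate 1 none of the 12 was called, and without late CMDM replicate 2, 3 were. Fibroblast sums were far larger in early CMDMs (3262 to 4587 CPM) and classical monocytes (3566 to 6188 CPM) than in either fraction compared. Keratinocyte sums were 21544.5 to 33965 CPM in early CMDMs and 2383 to 5177 CPM in classical monocytes. The gate on CD45 and CD11b is meant to leave these cells out, and their part in the genes that were lower was not tested.

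In the other direction, of 14 markers of basophils, mast cells and eosinophils, 10 passed the filter on low counts and were called higher in Ly6CloPD-L2lo and 4 did not pass. A marker that passed only through the fraction where it is high was likely to differ, so the count is a description, with sums of 111 to 213 CPM against 19.4 to 52.2 CPM. With at least 10 counts in every library 6 were tested, and all 6 were higher. *Cma1*, mast cell chymase, was 66.7, 28.0 and 45.3 CPM in Ly6CloPD-L2lo and 13.1, 9.85 and 4.85 CPM in late CMDMs. *Cpa3*, mast cell carboxypeptidase, was 27.1, 13.4 and 17.0 against 6.85, 6.26 and 1.75 CPM, with an adjusted p of 0.0637 without Ly6CloPD-L2lo replicate 1. *Fcer1a*, the alpha chain of the IgE receptor, was 4.31, 3.88 and 3.65 against 0.319, 0.669 and 0.135 CPM. *Mcpt8* and *Prss34*, proteases of basophils, reached at most 18 counts and 0 counts in the Ly6CloPD-L2lo libraries.

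Of 21 markers of T, NK and innate lymphoid cells, 10 were higher and 2 lower (median 0.59, and -0.08 under pan-leukocyte scaling). Leaving out Ly6CloPD-L2lo replicate 2, late CMDM replicate 2 or late CMDM replicate 3 left 6, 5 or 4 higher. Their sum was 289 to 323 CPM against 163 to 207 CPM, and *Il7r* alone was 157, 170.2 and 159.8 against 42.2, 39.8 and 38.4 CPM. Without *Il7r* the sums of the fractions overlapped. No member of the B cell list was called (5 tested), and the summed neutrophil markers were 129 to 148 CPM against 118.1 to 147 CPM. Of those, 2 rose and 2 fell. *Retnlg* was 39.1, 44.8 and 47.7 against 4.38, 5.78 and 5.93 CPM. The part of these other cells in the genes that were higher was not tested.

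**Figure D5:**
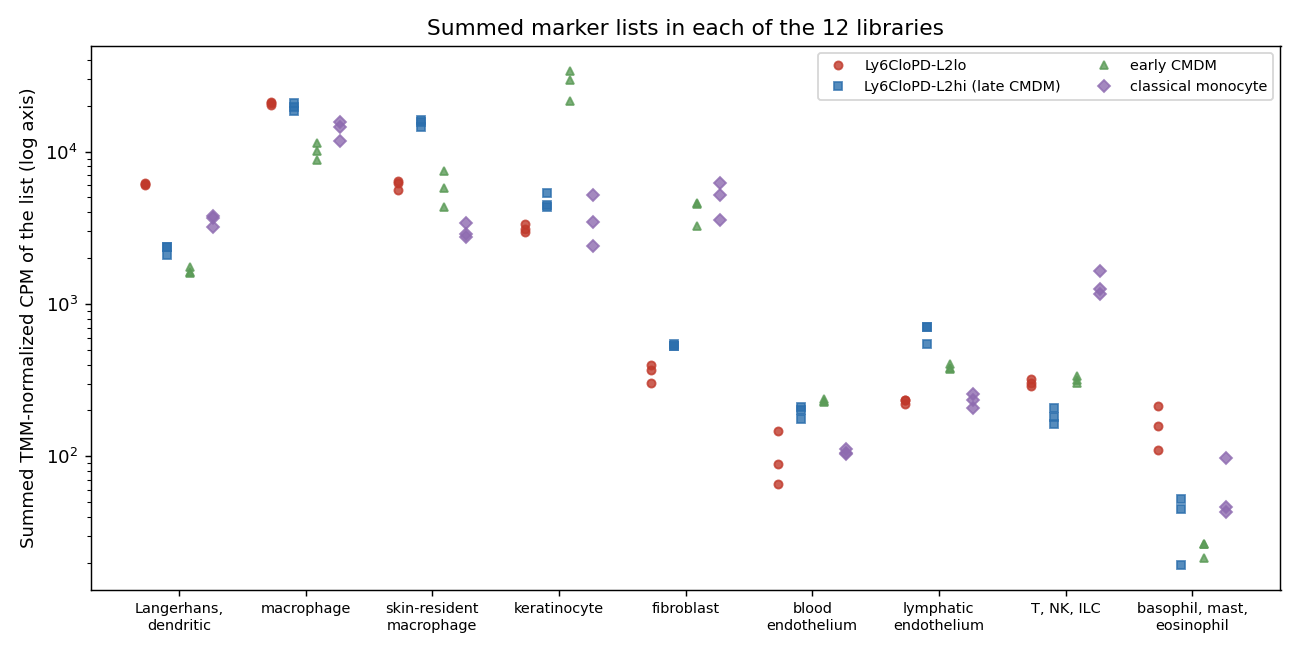
Each point is the summed CPM of one marker list in 1 of the 12 libraries (log axis), with 3 libraries in each of the 4 fractions. Ly6CloPD-L2lo libraries lie above those of late CMDMs for Langerhans and dendritic cell genes and for basophil, mast cell and eosinophil markers. They also lie above them for T, NK and innate lymphoid markers, though not without *Il7r*. They lie below them for resident macrophage, keratinocyte, fibroblast and endothelial markers, and overlap them for macrophage identity genes. That overlap is lost without *Lyz2*.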

How the data were processed

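Cells of 4 fractions of Mo-Macs (monocytes and macrophages) were sorted from skin and sequenced from polyadenylated RNA. The deposited values were raw read counts per gene for all 12 libraries in 1 table. The authors trimmed reads with cutadapt 4.1 and aligned them with Bowtie2 2.4.5 to GRCm38 reference RNA before counting, with alignment of each read in the forward orientation turned off, so that reads were taken from 1 strand only. No column was left unused.

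Genes were filtered with filterByExpr, scaled by TMM and tested with the quasi-likelihood test of edgeR 4.0.16 (R 4.3.3, limma 3.58.1) in 1 model of the 4 groups, with Benjamini-Hochberg adjustment over the 22118 genes tested and a call at an adjusted p under 0.05. Every adjusted p in the text is from that test unless another fit is named. The authors' own count test was run in another package and was not repeated. A count of 0 allows up to 3 counts, 0.162 to 0.239 CPM per library, for counting error only. Coordinates and transcript lengths are from GENCODE M21 (GRCm38), promoters from RefSeq.

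Named genes were those of the gate, the 15 largest fold changes per direction among called genes of at least 10 CPM without overlap of libraries, the 10 largest CPM differences per direction, the first and most changed members of each list, and members that complete a role. The ranking by fold change left out Gm, Rik and accession-like symbols and immunoglobulin and T cell receptor segments. *Vwf*, *Ccl7*, *Ms4a2* and genes of a list outside this rule were chosen after their values were seen. The comparison, its genes and its lists were chosen with earlier results of these data known. Alternatives were DESeq2 1.42.0, other scalings, filters and thresholds, a fit of only the 6 libraries, a replicate block, leaving out each library and, added after the data were seen, a correction for transcript length. Some genes that the rule names are not reported here.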

Additional observations from a re-analysis of the deposited data

How the results depend on the processing

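The 6225 calls, of which 2297 changed at least 2-fold, became 6206 and 2304 with RLE size factors, 6638 and 2555 with library size only, 6207 and 2272 with DESeq2, 6052 and 2447 without a filter on low counts, 5677 and 1568 with at least 10 counts in every library (17632 genes tested), 6613 and 2209 in the fit of only the 6 libraries, 6235 and 2289 without genes over 1% of counts, and 6524 and 2320 with the transcript length correction. Scaling by 10 pan-leukocyte genes gave 13161 and 5732, and 52 called genes were then called in the opposite direction, against 0 under each of the other settings. An adjusted p under 0.01 left 3826 calls. Leaving out 1 library gave 4771 to 5488 calls, and 2091 to 2348 that changed at least 2-fold.

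Under pan-leukocyte scaling the log2 fold change turned negative for *Itgam* (-0.31), *Actb* (-0.055), *Cd24a* (-0.22), *Clec9a* (-0.10), *Xcr1* (-0.46), *Arpc2* (-0.0054), *Rac1* (-0.16), *Retnla* (-0.61), *Trf* (-0.14), *Spi1* (-0.10), *Mki67* (-0.23), *Top2a* (-0.20) and *Rplp0* (-0.14), by that scaling's own construction. *Retnla* was also negative with library size only (-0.070), with the replicate block (-0.046), without Ly6CloPD-L2lo replicate 2 (-0.80) and without late CMDM replicate 3 (-0.16), within a range of -0.80 to 0.43 when 1 library was left out. The cause was not tested. With library size only, 9 proliferation genes, 6 T, NK and innate lymphoid genes, 4 engulfment genes and 4 ribosomal genes were higher. In the fit of only the 6 libraries 5 lectin, 4 Fc receptor, 5 chemokine receptor and 9 interferon genes were lower.

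Replicate numbers are shared between the fractions, but same-numbered libraries deviated together with correlations of only 0.04, 0.06 and 0.06, so the numbers were not taken to pair them. Each library correlated best with its own number, a hint from the data only. With the replicate block 6799 genes were called, 2318 of them changed at least 2-fold, and 12 engulfment genes were higher and 6 lectin, 3 Fc receptor and 11 interferon genes lower.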

Other observations

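Complement genes were higher in 4 of 21 members and lower in 6 in Ly6CloPD-L2lo (median -0.32). Over all genes tested the shares were 12.7% higher and 15.4% lower. The components *C4b* (-1.39), *Cfb* (-1.20), *C1ra* (-1.06) and *C2* (-0.88), which take part in forming the convertases, fell, while properdin, *Cfp* (1.17), which stabilizes the alternative convertase, rose. Pattern recognition genes rose in 4 of 17 and fell in 5 (median -0.35), with 3 falling without Ly6CloPD-L2lo replicate 1 or 3 or late CMDM replicate 1 or 3, and a median of -0.16 without Ly6CloPD-L2lo replicate 3. *Tlr4* (-1.29) and its partner *Ly96* (-0.66) fell, while the co-receptor *Cd14* (1.16) and *Tlr2* (1.03) rose. Interferon-induced genes were called in smaller shares than all genes tested, 4 of 40 in each direction (median -0.25), with *Rsad2* (-1.59) lower and *Isg20* (1.05) higher. These calls moved with single libraries: 2 fell without Ly6CloPD-L2lo replicate 1, 1 fell without Ly6CloPD-L2lo replicate 3 or late CMDM replicate 1, 1 rose and 6 fell without late CMDM replicate 2, and 1 rose without late CMDM replicate 3. With the replicate block 11 fell.

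Integrin and adhesion genes rose in 12 of 26 members and fell in 5 (median 0.43, and -0.24 under pan-leukocyte scaling). The leukocyte integrin chains *Itgad* (3.38), *Itgb7* (1.57), *Itgal* (1.14) and *Itga4* (1.08) rose, and *Itgb8* (-2.45), whose product activates latent TGF-beta, fell. Matrix protease genes rose in 5 of 22 and fell in 7 (median -0.18, and 0.06 without late CMDM replicate 3). The metalloprotease genes *Mmp12* (1.46) and *Mmp25* (1.72) rose, and the inhibitor genes *Timp2* (-1.39) and *Timp3* (-1.97) fell. Of all genes tested, 12.7% were called higher and 15.4% lower. Among those of at least 10 CPM, 13.8% to 25.4% were higher and 15.9% to 30.3% lower, by transcript length class. Glycolysis genes were higher in 4 of 23 and lower in 4 (median 0.06). Proteasome genes were higher in 4 of 44 and lower in 2 (median 0.08), the interferon-inducible subunit genes *Psmb8* (0.53) and *Psmb9* (0.34) among the first. Stress genes that dissociation induces rose in 6 of 18 and fell in 2 (median 0.19), with 2 rising without late CMDM replicate 3 and 0 falling without Ly6CloPD-L2lo replicate 3 or late CMDM replicate 1 or 2. Of 9 plasmacytoid dendritic cell markers, 0 rose and 3 fell, with 0 falling without Ly6CloPD-L2lo replicate 1 and 1 without Ly6CloPD-L2lo replicate 3 or late CMDM replicate 1 or 2, and of 7 glial and melanocyte markers 1 rose and 2 fell.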
